A study of Mus musculus with 12 samples.

Results

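The disease-associated microglia genes described here are Cst7, Clec7a, Itgax, Lpl, Spp1, Gpnmb, Axl, Cd9 and Lgals3. They were chosen by name, as genes commonly listed for the microglia that gather at amyloid plaques, with earlier results of these data known. They make up 9 of the 50563 genes in the deposited count table. RNA-Seq was performed on the brain cortex of 12 aged E4FAD mice, with 1 library per mouse. E4FAD mice carry human APOE4 in place of the mouse gene on both alleles, and 1 copy of the 5xFAD transgenes, which are expressed in neurons from the Thy1 promoter and lead to amyloid plaques. All 12 mice carried these alleles, so no library came from a mouse without them. The 7 CTRL mice were gavaged with vehicle and the 5 DPAn-6 mice with 700 mg/kg of docosapentaenoic acid n-6 (DPAn-6), an n-6 polyunsaturated fatty acid, daily for 3 weeks. By the study's methods both groups received the antioxidants alpha-tocopherol and palmitoyl ascorbic acid. At 12 months of age there were 2 CTRL and 2 DPAn-6 mice, and at 14 months 5 CTRL and 3 DPAn-6 mice. By the study's methods CTRL held 4 females and 3 males and DPAn-6 held 3 females and 2 males. The comparison asks whether DPAn-6 altered the expression of these genes in a brain with amyloid.

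Microglia are the resident macrophages of the brain. In the healthy cortex they express a homeostatic set of genes, and near amyloid plaques many of them lower that set and switch on a lipid-handling, lysosomal and phagocytic set, which depends in large part on the receptor TREM2. The products of the 9 genes have different places in that state. Spp1 (osteopontin), Cst7 (cystatin F), Lpl (lipoprotein lipase) and Lgals3 (galectin-3) are secreted or are active outside the cytosol, whereas Axl, Itgax (CD11c), Clec7a (dectin-1), Gpnmb and Cd9 are membrane proteins. Several of the 9 are also made outside microglia, among them Cd9 in oligodendrocytes, Lpl in some neurons and Axl in astrocytes and vessels. These are examples, and the cells that made the RNA of each of the 9 were not identified here. In bulk cortex, fewer cells of a type and less RNA per cell cannot be told apart.

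Promoter sequences were available for 8 of the 9 genes (RefSeq, build GRCm38.p6), and Lpl was not matched. The 8 genes had 10 windows, with 2 each for Spp1 and Clec7a, which have 2 start sites in the table. The 2 windows of Clec7a share most of their bases, so the 10 are not all separate promoters. The 250 bases before the start site are shown for the 4 genes with the largest falls, since these genes moved together between the groups, and for Spp1 the window of the upstream start site is given. Capitals mark a match, on either strand, to the core AGGAAGT of the macrophage factor PU.1 or to the AP-1 site TGANTCA. The windows are chr5:104434861-104435110, plus strand for Spp1, chr6:49036268-49036517, plus strand for Gpnmb, chr7:128129300-128129549, plus strand for Itgax and chr2:150570165-150570414, plus strand for Cst7.
Spp1: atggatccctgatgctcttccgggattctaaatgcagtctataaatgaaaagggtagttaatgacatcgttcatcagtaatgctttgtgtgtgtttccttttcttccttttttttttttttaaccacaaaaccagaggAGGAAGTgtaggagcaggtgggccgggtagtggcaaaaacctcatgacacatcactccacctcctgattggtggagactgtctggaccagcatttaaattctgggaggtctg
Gpnmb: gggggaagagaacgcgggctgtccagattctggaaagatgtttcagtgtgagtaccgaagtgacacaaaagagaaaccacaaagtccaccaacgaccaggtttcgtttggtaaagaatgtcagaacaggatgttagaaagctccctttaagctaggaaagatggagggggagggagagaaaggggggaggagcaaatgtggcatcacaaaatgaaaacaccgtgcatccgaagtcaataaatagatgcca
Itgax: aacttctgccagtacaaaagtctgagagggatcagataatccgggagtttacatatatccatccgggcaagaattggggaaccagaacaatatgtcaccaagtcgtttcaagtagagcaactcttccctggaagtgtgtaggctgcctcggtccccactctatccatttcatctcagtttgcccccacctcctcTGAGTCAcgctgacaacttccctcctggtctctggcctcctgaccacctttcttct
Cst7: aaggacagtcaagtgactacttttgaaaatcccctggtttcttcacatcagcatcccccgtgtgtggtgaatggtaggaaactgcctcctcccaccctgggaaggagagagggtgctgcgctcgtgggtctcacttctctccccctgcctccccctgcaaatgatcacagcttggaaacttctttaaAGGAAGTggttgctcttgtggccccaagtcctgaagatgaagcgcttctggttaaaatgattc
The last 3 bases of the Itgax window lie in an annotated exon. AGGAAGT was present before Spp1, from 112 bases upstream of the start, and before Cst7, from 63 bases upstream. It was in 2 of the 10 windows, those of 2 of the 8 genes, and in 7.69% of the 32851 promoter windows of the same length. TGANTCA was found before Itgax, as TGAGTCA from 56 bases upstream, in 1 of the 10 windows and in 6.75% of all windows. The E-box CACGTG was in none of the 10 windows and in 6.02% of all windows, and its variant CATGTG was in 1, that of Cd9, and in 12.3% of all windows. These matches are a description of the letters and not of bound factors.

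Total counts on genes ranged from 15339098 to 19500154 in CTRL and from 15208803 to 26520251 in DPAn-6 (two-sided exact permutation test, p = 0.222), and the 9 genes had 33 to 2256 counts per mouse. The share of counts taken by the 50 most abundant genes was 11.9 ± 1.12% in the CTRL mice (SD, n = 7) and 10.6 ± 0.218% in the DPAn-6 mice (SD, n = 5; exact permutation p = 0.0114). Ttr, which is abundant in the choroid plexus beside the cortex, ranged from 2.59 to 10.58 log2 CPM in CTRL and from 0.87 to 3.88 in DPAn-6, with the highest values in CTRL replicates 2, 5 and 3. Xist was between 0.46 and 2.07 log2 CPM in CTRL replicates 4, 5 and 6 and DPAn-6 replicates 3 and 4, and between 9.15 and 10.57 in the other 7 libraries. Both 12-month CTRL mice were thus high in Xist and both 12-month DPAn-6 mice low, and the 14-month DPAn-6 mice were all high, so age and Xist cannot be told apart in the DPAn-6 group. The libraries low in Xist equal in number the males that the study's methods give, 3 in CTRL and 2 in DPAn-6. The sex of single mice is not in the labels. The microglial marker Csf1r was detected in every library, at 8.03 ± 0.22 log2 CPM in the CTRL mice (SD, n = 7).

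Expression of these genes fell in DPAn-6 for 5 of the 9. Counts were compared by edgeR's quasi-likelihood test over the 15688 genes that passed its filter on low counts, all 9 described here among them, with Benjamini-Hochberg adjustment over all of these genes. Spp1, Gpnmb, Itgax, Cst7 and Axl passed an adjusted p of 0.05, all lower in DPAn-6. Among all genes tested 1.55% passed in either direction and 1.14% were called lower. In each of the 5, every DPAn-6 mouse lay below every CTRL mouse, as did 1.49% of all genes tested. Clec7a passed at the unadjusted level, so that 6 of the 9 did, where 9.02% of all genes tested were lower at that level, and Cd9, Lpl and Lgals3 did not pass at either level. The median log2 fold change of the 9 genes was −0.92, beside −0.0047 over all genes tested, and 7 of the 9 were below 0 beside 51.3% of all genes.

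Among the secreted products, Spp1 had the largest difference. Spp1 (ENSMUSG00000029304, chromosome 5, 104435118 to 104441050) encodes osteopontin, a phosphoprotein that binds integrins and CD44. Its lowest, median and highest values in CTRL were 5.30, 6.21 and 7.04 log2 CPM, and the DPAn-6 mice had 4.63, 4.59, 3.58, 4.20 and 3.81. The gap between the groups, from the lowest CTRL mouse to the highest DPAn-6 mouse, was 0.67 on the log2 scale. The fall of Spp1 was by a log2 fold change of −2.16 (standard error 0.29; 95% interval −2.78 to −1.55; adjusted p = 0.00301 by edgeR), which is 4.48-fold lower. It ranked 10 by p among the 15688 genes. Spp1 shares exon sequence on the same strand with Gm42793, which had at most 1 count in any library.

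Cst7 (ENSMUSG00000068129, chromosome 2, 150570415 to 150578944) encodes cystatin F, an inhibitor of the lysosomal cathepsins C, H and L. In CTRL it had a lowest value of 5.33, a median of 5.78 and a highest value of 6.34 log2 CPM, against 5.03, 5.07, 4.62, 4.63 and 4.98 in the DPAn-6 mice. The groups were 0.25 apart at their closest. Cst7 was 2.02-fold lower in DPAn-6 (log2 fold change −1.01, standard error 0.16; adjusted p = 0.00755 by edgeR).

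Lpl and Lgals3, the other secreted products, overlapped almost fully between the groups. Lpl (ENSMUSG00000015568, chromosome 8, 68880491 to 68907448) encodes the lipase that releases fatty acids from lipoproteins. It ranged from 4.73 to 5.38 log2 CPM in CTRL, and the DPAn-6 mice had 4.93, 5.38, 4.81, 5.30 and 5.13. The log2 fold change was 0.01 with a 95% interval of −0.25 to 0.28, so a change of the size of those in Spp1, Gpnmb, Itgax or Cst7 lies outside that interval. Lgals3 (ENSMUSG00000050335, chromosome 14, 47367751 to 47386160) encodes galectin-3, a lectin that binds galactosides on glycoproteins and on damaged lysosomes. It was the least abundant of the 9, with 33 to 101 counts per mouse, and had 1.13, 1.80 and 2.04 log2 CPM as the lowest, median and highest CTRL values. The DPAn-6 mice had 2.20, 2.21, 0.84, 1.26 and 1.94, which spans more than the CTRL range. The log2 fold change of Lgals3 was 0.07 (95% interval −0.43 to 0.57).

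**Figure D1:**
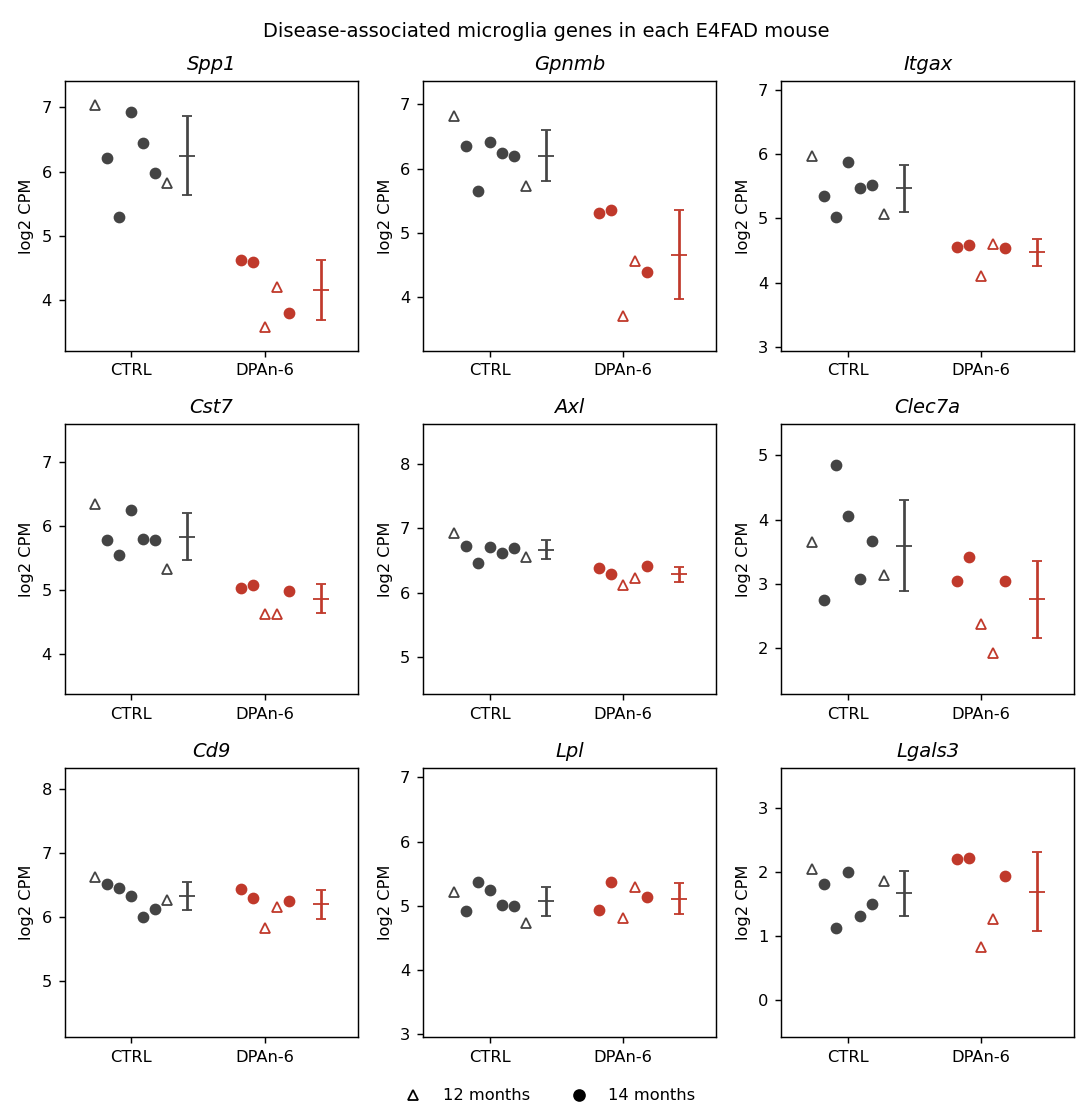
Expression of the 9 disease-associated microglia genes in each mouse, in log2 CPM (counts scaled to a common library total, with 0.5 added to each count), with 1 panel per gene and a vertical span that is the same in all panels. Points are mice (open triangles 12 months, filled circles 14 months) and bars show the mean and SD of 7 CTRL and 5 DPAn-6 mice. The groups do not overlap in Spp1, Gpnmb, Itgax, Cst7 and Axl, and they overlap in the other 4.

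Among the membrane proteins, Gpnmb showed the largest fall. Gpnmb (ENSMUSG00000029816, chromosome 6, 49036546 to 49070929) encodes a glycoprotein of lysosomes and the cell surface that is induced in lipid-laden macrophages. The CTRL mice had 5.66, 6.25 and 6.82 log2 CPM as their lowest, median and highest values, and the DPAn-6 mice had 5.30, 5.36, 3.71, 4.56 and 4.39. The spread within DPAn-6 was wide, with replicate 3 lowest at 3.71 and replicates 1 and 2 nearest to the lowest CTRL mouse. Gpnmb was 2.81-fold lower (log2 fold change −1.49, standard error 0.26; adjusted p = 0.0126 by edgeR).

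Itgax (ENSMUSG00000030789, chromosome 7, 128129547 to 128150657) encodes CD11c, the alpha chain of an integrin receptor for complement fragments. Its lowest, median and highest CTRL values were 5.03, 5.48 and 5.97 log2 CPM, whereas the DPAn-6 mice had 4.55, 4.58, 4.10, 4.59 and 4.54. Of the DPAn-6 mice, 4 lay between 4.54 and 4.59 and replicate 3 stood below them. Itgax was 2.07-fold lower in DPAn-6 (log2 fold change −1.05, standard error 0.16; adjusted p = 0.00551 by edgeR).

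Axl (ENSMUSG00000002602, chromosome 7, 25757273 to 25788705) encodes a receptor tyrosine kinase that recognises dying cells through the ligand Gas6. It varied least between mice, from 6.46 to 6.92 log2 CPM in CTRL with a median of 6.70. The DPAn-6 mice had 6.38, 6.29, 6.11, 6.22 and 6.41, and the groups were 0.045 apart at their closest. Axl was 1.33-fold lower (log2 fold change −0.41, standard error 0.08; adjusted p = 0.0195 by edgeR). Its call was lost without DPAn-6 replicate 2, 3 or 4, with adjusted p-values of 0.0526, 0.0848 and 0.0729.

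Clec7a (ENSMUSG00000079293, chromosome 6, 129461591 to 129472779) encodes dectin-1, a lectin receptor for beta-glucans that signals through Syk. It had the widest CTRL range of the 9, with 2.74, 3.64 and 4.85 log2 CPM as the lowest, median and highest values, and the highest was CTRL replicate 3. The DPAn-6 mice had 3.04, 3.42, 2.38, 1.92 and 3.05, so that 2 of the 5 lay below every CTRL mouse and all 5 lay below the CTRL mean. The log2 fold change was −0.92 (95% interval −1.66 to −0.19; unadjusted p = 0.0172, adjusted p = 0.218 by edgeR). Without CTRL replicate 3 the difference was −0.61 (adjusted p = 0.149).

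Cd9 (ENSMUSG00000030342, chromosome 6, 125460266 to 125494791) encodes a tetraspanin that organises integrins and other proteins in the membrane. It ranged from 6.002 to 6.62 log2 CPM in CTRL, and the DPAn-6 mice had 6.44, 6.30, 5.84, 6.16 and 6.26. The log2 fold change was −0.16 with a 95% interval of −0.41 to 0.09. An exon of Cd9 overlaps Gm26728 on the opposite strand, which had 1 to 7 counts per library, against at least 1085 for Cd9.

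**Figure D2:**
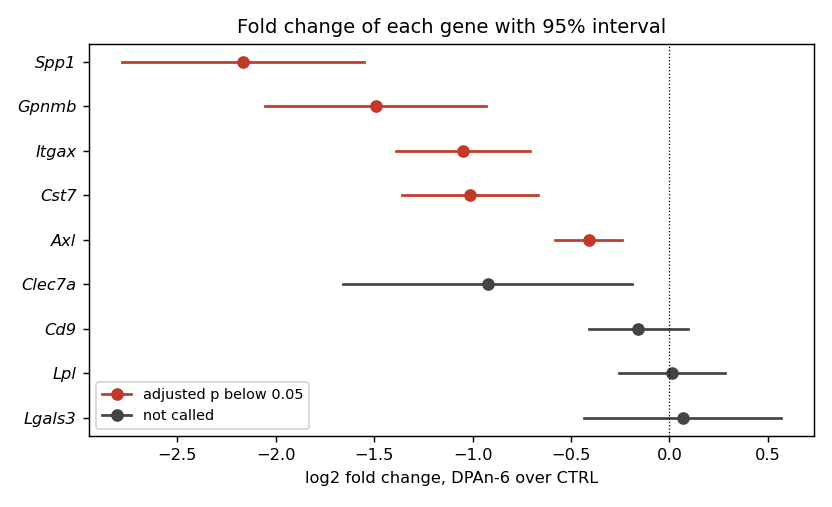
Log2 fold change of each gene, DPAn-6 over CTRL, from edgeR's quasi-likelihood test, with a 95% interval computed from its F statistic. The dotted line marks no difference. Spp1 (−2.16), Gpnmb (−1.49), Itgax (−1.05), Cst7 (−1.01) and Axl (−0.41) passed an adjusted p of 0.05, and the intervals of Cd9, Lpl and Lgals3 include 0.

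Mean log2 CPM was also compared by an exact permutation test (two-sided, 792 ways to divide the 12 mice into 7 and 5). The p was 0.00126, the smallest these groups allow, for Spp1, Gpnmb and Cst7, and 0.00253 for Itgax and Axl. It was 0.0581 for Clec7a, 0.327 for Cd9, 0.785 for Lpl and 0.926 for Lgals3. So 5 of the 9 were lower at an unadjusted p below 0.05, where 7.15% of all genes tested were, and after adjustment over all 15688 genes none passed (0%), with 0.0839 for Spp1, Gpnmb and Cst7 and 0.103 for Itgax and Axl.

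Compared per length of exon sequence, the order of the genes differed between the groups. In CTRL the mean level was 59.3 ± 15.1 CPM per kb (SD, n = 7) for Cst7, 49.8 ± 20.7 for Spp1, 39.7 ± 5.95 for Cd9, 20.3 ± 2.12 for Axl and 11.7 ± 3.25 for Gpnmb. Itgax followed at 9.48 ± 2.42, Clec7a at 5.10 ± 2.85, Lpl at 3.24 ± 0.494 and Lgals3 at 1.73 ± 0.405 CPM per kb. The ranges of mean ± SD overlapped between Cst7 and Spp1, Spp1 and Cd9, Gpnmb and Itgax, Itgax and Clec7a, and Clec7a and Lpl, and not between the other neighbours in this order. In DPAn-6, Cd9 was first at 36.2 ± 5.36 CPM per kb (SD, n = 5), followed by Cst7 at 29.8 ± 4.47, Axl at 15.5 ± 1.29 and Spp1 at 11.3 ± 3.50. Itgax was at 4.66 ± 0.614, Gpnmb at 4.24 ± 1.87, Lpl at 3.33 ± 0.546, Clec7a at 2.73 ± 1.04 and Lgals3 at 1.84 ± 0.697. In this group the ranges overlapped between all neighbours except Cst7 and Axl, and Spp1 and Itgax. The mean of Spp1 thus stood above that of Cd9 and Axl in CTRL and below both in DPAn-6, with its range in DPAn-6 overlapping that of Axl.

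Within the groups, the called genes varied together from mouse to mouse. After the group mean was removed from each gene, the Pearson correlation over the 12 mice ranged from 0.73 to 0.89 among the 10 pairs of Spp1, Gpnmb, Itgax, Cst7 and Axl, with a median of 0.82. All pairs come from the same 12 libraries and share their depth and cell content, and these values are a description. CTRL replicates 1 and 4 were above their group mean in all 5 of these genes, and CTRL replicates 3 and 7 were below it in all 5. Between these 5 genes and the other 4 the correlation ranged from −0.06 to 0.78, with a median of 0.40. The 3 lowest values were those of Clec7a with Spp1, Axl and Itgax. Without CTRL replicate 3 the correlation of Clec7a with Spp1 moved from −0.06 to 0.49 and with Cst7 from 0.31 to 0.71. Over the remaining mice, pairs between the 5 genes and the other 4 ranged from 0.47 to 0.85, with a median of 0.59. Pairs among the 5 then ranged from 0.61 to 0.89, with a median of 0.79. The medians were thus closer and the ranges overlapped more without that mouse.

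**Figure D3:**
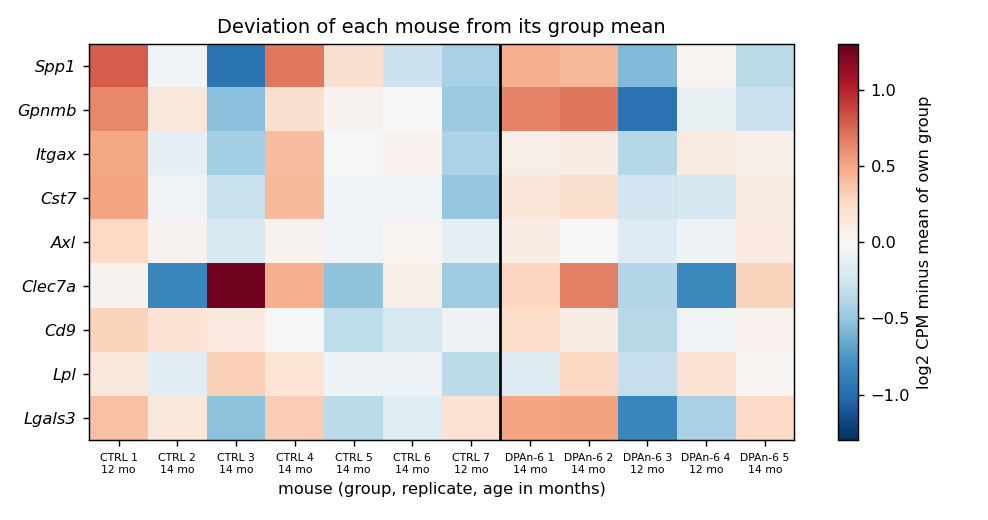
Deviation of each mouse from the mean of its own group, in log2 CPM, for the 9 genes (rows) and 12 mice (columns, with age in months; the vertical line parts CTRL from DPAn-6). CTRL replicate 3 is high in Clec7a and low in Spp1 and Gpnmb, and DPAn-6 replicate 3 is below its group mean in all 9 genes.

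The genes whose deviations were most like the mean of the 9, among 14449 genes with a mean of at least 1 CPM, were Mamdc2 (r = 0.92), Lyz2 (0.91), Hvcn1 (0.91), Cmklr1 (0.90), Arl11 (0.90), Siglec1 (0.90), Anxa3 (0.88) and 8030453O22Rik (0.87), over the 12 mice and after the group means were removed. Lyz2 encodes the macrophage lysozyme and Cmklr1 the chemerin receptor. Between the groups, Cmklr1 fell by 0.98 on the log2 scale (adjusted p = 0.00193 by edgeR) and Anxa3 by 0.49 (adjusted p = 0.0398), and the other 6 did not pass.

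The homeostatic genes of microglia were lower as well, and the level of the 9 genes was therefore also taken relative to them. Of 18 homeostatic genes, all tested, 17 had a log2 fold change below 0, with a median of −0.44, and 4 were called. Over all genes tested, 51.3% were below 0 and 1.14% were called lower. Olfml3 fell by 1.19 on the log2 scale (adjusted p = 0.000500 by edgeR), Selplg by 0.64 (0.00551), Csf1r, the receptor on which microglia depend for survival, by 0.50 (0.0282) and Tmem119 by 0.77 (0.0286). Slc2a5, singled out after its value was seen, was the exception at 1.06 (adjusted p = 0.20). The mean of the 18 genes was 5.03 ± 0.13 log2 CPM among CTRL mice (SD, n = 7) and 4.74 ± 0.11 among DPAn-6 mice (SD, n = 5; exact permutation p = 0.00379). When this mean was subtracted from each mouse's value, the difference was −1.795 for Spp1 (exact permutation p = 0.00126), −1.25 for Gpnmb (0.00126), −0.71 for Itgax (0.00505) and −0.67 for Cst7 (0.00379) on the log2 scale, and the groups did not overlap in any of these 4. In the same measure 1.02% of all genes tested were lower in DPAn-6 at an exact permutation p below 0.05. Axl, by contrast, was 1.64 ± 0.14 above the homeostatic mean in CTRL (SD, n = 7) and 1.55 ± 0.13 in DPAn-6 (SD, n = 5), a difference of −0.09 (exact permutation p = 0.239). Lpl was higher relative to it, by 0.33 (exact permutation p = 0.0316), as were 50.3% of all genes tested at that level. This measure was chosen after the values were seen.

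When the mean of the homeostatic list entered the edgeR fit as a covariate, 0 of the 9 genes and 0% of all 15688 were called. With that covariate the log2 fold change was −1.62 for Spp1 (unadjusted p = 0.000984, adjusted p = 0.417), −0.76 for Itgax (0.00702 and 0.676), −0.70 for Cst7 (0.0123 and 0.739), −0.84 for Gpnmb (0.0225 and 0.799) and −0.24 for Axl (0.0668 and 0.955). At an unadjusted p below 0.05, 6 of the 9 passed in this fit, where 851 of all genes (5.42%) did, and among these Cd9 (0.31, unadjusted p = 0.0339) and Lgals3 were higher in DPAn-6.

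Of 30 other genes commonly listed for plaque-associated microglia, 26 had a log2 fold change below 0, beside 51.3% of all genes tested. The median log2 fold change was −0.25, and none was called by edgeR. At an unadjusted p below 0.05, 12 of the 30 were lower and none higher, where 9.02% of all genes tested were lower. The lowest p-values were those of Cd68, a lysosomal glycoprotein of phagocytes, at −0.64 (adjusted p = 0.0575), of the chemokine Ccl6 at −0.80 (0.0917), of Cd84 at −0.70 (0.0961) and of the protease Ctsd at −0.43 (0.111). Ccl3 at −0.52 (0.123), Trem2 at −0.50 (0.142), Ctsl at −0.19 (0.221) and Lyz2 at −0.38 (0.289) followed. In each of these 8 genes all 5 DPAn-6 mice lay below the CTRL mean, which their choice by lowest p made likely. Ctsb, Fth1, Cd63 and Fabp5 had log2 fold changes of −0.03, −0.08, 0.12 and 0.17. In these, 2, 3, 2 and 1 of the 5 DPAn-6 mice lay below the CTRL mean.

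Partners of the 9 genes are their ligands, co-receptors, substrates and upstream factors. Of 31 such genes 29 were tested, 21 had a log2 fold change below 0, the median was −0.15 and 2 were called. Among all genes tested, 51.3% were below 0 and 1.14% were called lower. Ctsh, a cathepsin that cystatin F inhibits, fell by 0.56 on the log2 scale (adjusted p = 0.0265 by edgeR), with no overlap between the groups. Mertk, a receptor kinase of the same family as Axl, fell by 0.40 (adjusted p = 0.0485). Among those not called, Ctsc, another target of cystatin F, had −0.53 (0.0727), Itgb2, the beta chain that pairs with CD11c, −0.40 (0.125) and Itgal, another alpha chain of Itgb2, −0.51 (0.199). Syk, the kinase downstream of dectin-1, had −0.33 (0.234), Lgmn −0.17 (0.263) and Fcer1g −0.31 (0.272). The third receptor of the Axl family, Tyro3, had a log2 fold change of 0.19 (adjusted p = 0.545), and the Axl ligand Gas6 had −0.15 (0.605). The osteopontin receptor Cd44 had 0.11 (0.890), and Mitf, Tfeb and Tfe3, factors known to regulate Gpnmb, had −0.17, 0.17 and 0.04.

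**Figure D4:**
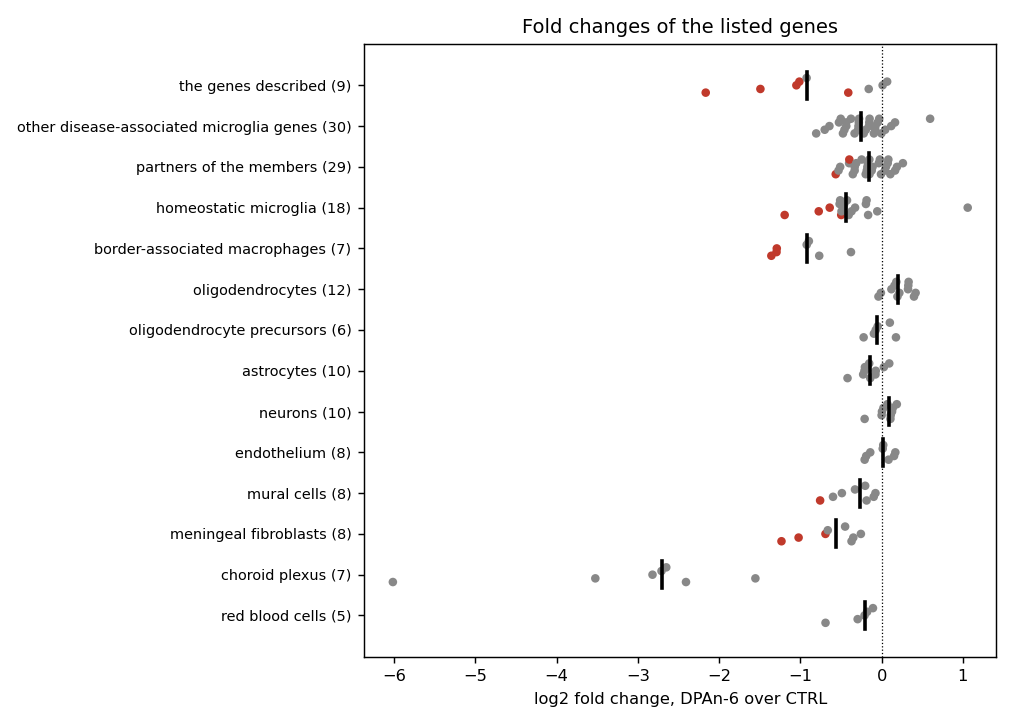
Log2 fold change, DPAn-6 over CTRL, of each tested gene of the lists (points; number of genes in brackets; red marks an adjusted p below 0.05), with the median of each list as a black line. The 9 genes described (median −0.92) and the border-associated macrophage list (−0.92) lie further below 0 than the other disease-associated list (−0.25), and the choroid plexus list is lowest (−2.71) with no gene called.

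Markers of other cells moved between the groups too, and their part in the falls of the 9 genes was not tested. For comparison, 51.3% of all genes tested had a log2 fold change below 0 and 1.14% were called lower. All 7 tested genes of border-associated macrophages, which lie in the meninges and around vessels, had a log2 fold change below 0, with 3 of them called, Mrc1 at −1.29 (adjusted p = 0.00260), F13a1 at −1.36 (0.00850) and Cd163 at −1.29 (0.0292). The summed level of the 10 listed genes ranged from 5.17 to 5.77 log2 CPM in CTRL and from 4.62 to 5.10 in DPAn-6, beside 8.62 to 9.37 and 7.83 to 8.39 for the summed level of the 9 genes described. The meningeal fibroblast list had 8 of 8 genes below 0 and 3 called (Col1a2, Lum and Igf2), and a summed level of 6.85 to 7.82 log2 CPM in CTRL and 6.14 to 7.13 in DPAn-6. Choroid plexus genes were below 0 in 7 of 7 with none called by edgeR and 6 at an unadjusted p below 0.05, and their summed level ranged from 3.95 to 10.75 in CTRL and from 3.42 to 4.77 in DPAn-6. Mural cell genes were below 0 in 8 of 8, and Myh11 was called at −0.76 (adjusted p = 0.00551). Oligodendrocyte genes were above 0 in 10 of 12 with a median of 0.21 and none called by edgeR, and 6 of the 12 were higher at an unadjusted p below 0.05, where 5.51% of all genes tested were. Medians were −0.15 for 10 astrocyte genes, −0.06 for 6 precursor genes, 0.09 for 10 neuronal, 0.02 for 8 endothelial and −0.21 for 5 red blood cell genes, with none called. The 9 genes listed for monocytes and neutrophils had at most 50 counts in any library and none passed the filter, and their summed level was −1.04 to 2.97 log2 CPM in CTRL and −1.76 to 0.01 in DPAn-6.

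Leaving out the 3 libraries highest in Ttr, an alternative chosen after the values were seen, kept all 5 calls. In that fit 541 of all 15611 genes tested were called. The log2 fold changes were −2.35 for Spp1 and −1.59 for Gpnmb. With Ttr as a covariate only Spp1 was called (−2.34, adjusted p = 0.0269), where 0.108% of all genes were, while the log2 fold changes of Gpnmb (−1.58), Itgax (−1.15), Cst7 (−1.07) and Axl (−0.42) had adjusted p-values of 0.147, 0.0708, 0.103 and 0.237.

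The falls were present at both ages. In the 14-month mice, 5 CTRL and 3 DPAn-6, the difference of the mean log2 CPM was −1.83 for Spp1, −1.16 for Gpnmb, −0.89 for Itgax, −0.80 for Cst7 and −0.28 for Axl, and the groups did not overlap in any of these 5 (exact permutation p = 0.0179 for each, the smallest that 5 against 3 mice allow). In the 12-month mice, with 2 in each group, the differences of the same genes were −2.54, −2.14, −1.17, −1.21 and −0.57, again with no overlap. Clec7a, Cd9 and Lgals3 did not overlap at 12 months either, so non-overlap of 2 against 2 mice does not set the 5 genes apart. The share of all genes without overlap at each age was not computed, so the non-overlap at 14 months cannot be set against that of all genes either. By edgeR in the 14-month mice alone none of the 9 was called, with an adjusted p of 0.0963 for Spp1, Itgax and Cst7, where 0.0564% of all genes were called, and 6 passed at an unadjusted p below 0.05, where 8.96% of all genes did, the 5 named and Lgals3, which was higher in DPAn-6 (0.52). In the 12-month mice alone 6 were called, Clec7a among them (−1.23, adjusted p = 0.00917), where 4.55% of all genes were called. At 12 months the groups also differed in Xist, so the treatment and Xist cannot be told apart there. With Xist as a covariate over all 12 mice, edgeR called the same 5 genes as without it, where 258 of all 15688 genes were called.

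Age itself was compared across both groups, 14 against 12 months with the group in the fit. By edgeR none of the 9 genes and 0% of all genes were called, and at an unadjusted p below 0.05 there were none of the 9 and 279 of all genes (1.78%), with none called by limma-voom. The largest difference was that of Clec7a, at 0.69 higher at 14 months (unadjusted p = 0.0559). Without CTRL replicate 1, 3 of the 9 were at an unadjusted p below 0.05, and without CTRL replicate 2 or 5 there was 1, Clec7a (0.80, unadjusted p = 0.0165, and 0.79, unadjusted p = 0.0276). Of all genes tested, 237 of 15647, 255 of 15607 and 265 of 15602 were at that level without CTRL replicate 1, 2 and 5. When the effect of DPAn-6 was compared between the ages in an interaction term, none of the 9 was called and 0.00637% of all genes were, and limma-voom called none of the 9. At an unadjusted p below 0.05, Lgals3 and Gpnmb passed, where 4.26% of all genes did. That count of 2 depended on single mice, being 5 without CTRL replicate 7, 4 without CTRL replicate 3, 3 without DPAn-6 replicate 4 and 1 without CTRL replicate 1, 4, 5 or 6 or DPAn-6 replicate 1, 2 or 3, and it was 1 by limma-voom. Lgals3 had the lowest p of the 9 in this test. At 12 months it was 1.95 ± 0.13 log2 CPM in CTRL (SD, n = 2) and 1.05 ± 0.30 in DPAn-6 (SD, n = 2), and at 14 months 1.55 ± 0.35 (SD, n = 5) and 2.11 ± 0.15 (SD, n = 3). The effect of DPAn-6 on Lgals3 was 1.42 more positive on the log2 scale at 14 months (unadjusted p = 0.00142, adjusted p = 0.784 by edgeR). For Gpnmb the corresponding difference between ages was 1.04 (unadjusted p = 0.0490, adjusted p = 0.905), with no overlap of CTRL and DPAn-6 at either age, and it was 0.39 (unadjusted p = 0.427) without CTRL replicate 1.

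**Figure D5:**
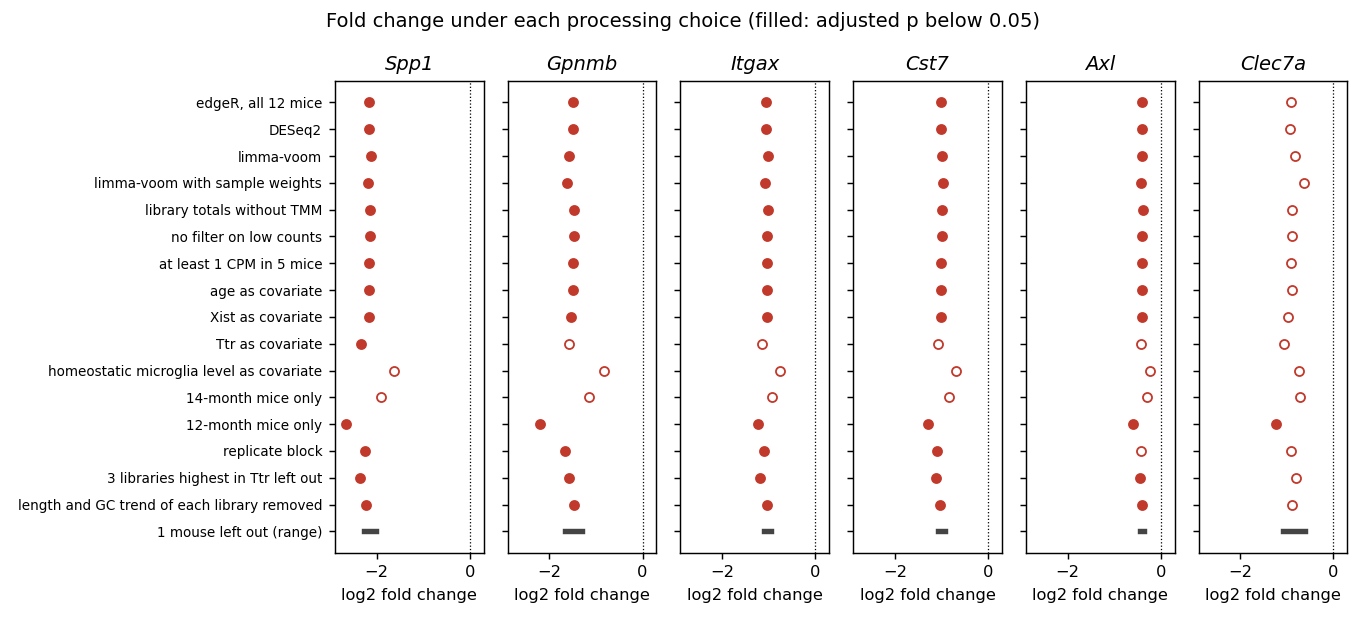
Log2 fold change, DPAn-6 over CTRL, of 6 of the genes (panels) under each processing choice (rows); filled points passed an adjusted p of 0.05 and the bar at the bottom gives the range when 1 mouse was left out in turn. All values lie below 0, and the calls of Gpnmb, Itgax and Cst7 are lost with Ttr or the homeostatic level as covariate and in the 14-month mice only.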

How the data were processed

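RNA-Seq was performed on cortex of 12 E4FAD mice. The authors made poly(A)-selected KAPA mRNA libraries, aligned reads with STAR 2.5.3a to GRCm38 (Ensembl 88) and deposited raw counts per gene, without normalization. The strand setting of the counting is not given in the sources used here. Positions and exon lengths are from GENCODE M21 (GRCm38). Log2 CPM was computed with a pseudocount of 0.5 on each library's total. The main test was edgeR's glmQLFTest (version 4.0.16, under R 4.3.3) after TMM and filterByExpr, without covariates, with limma-voom, which the study's methods name, and DESeq2 1.42.0 among 25 alternatives, 12 of which leave out 1 mouse each. Each library was taken as 1 mouse, and p-values measure the spread between these libraries. The edgeR, limma and DESeq2 fits and the permutation test were checked on simulated data. The 9 genes and all lists were chosen with earlier results of these data known. Besides these 9, the genes named are those called or of the 8 lowest unadjusted p in the 2 related lists, the 4 lowest among homeostatic genes, the 8 most alike, and list members given as examples.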

Additional observations from a re-analysis of the deposited data

Results flagged for a closer look

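Itgax in DPAn-6 replicate 3, at 4.10 log2 CPM, lay apart from the other DPAn-6 mice, by 0.891 of the range of the group. Of 18 gene and group combinations examined in this way it was the only one, and chance gives about 1 in 20. The same mouse was the lowest of its group in 7 of the other 8 genes described, all except Clec7a.

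Lgals3 moved in opposite directions at the ages: both 12-month DPAn-6 mice lay below the CTRL mean of their age and all 3 of the 14-month DPAn-6 mice above it. The difference between the effects was 1.42 on the log2 scale (edgeR interaction term, unadjusted p = 0.00142, adjusted p = 0.784), and it ranged from 1.23 to 1.63 when each mouse was left out in turn. Age and Xist cannot be told apart in the DPAn-6 group.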

How the results depend on the processing

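The median log2 fold change of the 9 genes stayed below 0 under all 27 alternatives, from −1.23 to −0.61, and the 5 genes called by edgeR stayed below 0 in each. Calls among the 9 fell from 5 to 1 with Ttr as covariate and to 0 with the homeostatic level as covariate. Both covariates differed between the groups (exact permutation p = 0.0189 for Ttr and 0.00379 for the homeostatic mean), so these fits cannot fully part them from the treatment. In the 14-month mice only, where fewer mice are compared, calls fell to 0 as well. Over all genes the count called moved from 243 to 696 by DESeq2, 1267 by limma-voom with sample weights, 17 with Ttr as covariate, 0 with the homeostatic level as covariate (851 at an unadjusted p below 0.05), 9 in the 14-month mice, 709 in the 12-month mice, 541 without the 3 libraries highest in Ttr and 502 with each library's length and GC trend removed (both chosen after the data were seen), and from 64 (without DPAn-6 replicate 3) to 953 (without CTRL replicate 3) with 1 mouse left out; the cause was not tested.

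With the replicate number as a block 79 genes were called, and 4 of the 9, with Axl at an adjusted p of 0.0816. Same-numbered mice had deviations that correlated between −0.12 and 0.22, above 0.1 in 1 of 5 pairs. Mice of different numbers had −0.26 to 0.27. None of the 5 DPAn-6 mice correlated best with its own number. With so few pairs, these values cannot tell whether the numbers pair the mice.

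Lpl, Lgals3 and Cd9, which were not called, changed sign. Lpl was −0.075 with the replicate block and ranged from −0.053 to 0.085 with 1 mouse left out (exact permutation p from 0.409 to 0.948). Lgals3 was −0.10 with Ttr as covariate, −0.92 in the 12-month mice and −0.087 without the 3 libraries highest in Ttr, and ranged from −0.050 to 0.24 with 1 mouse left out (exact permutation p from 0.315 to 0.991). Cd9 was 0.31 with the homeostatic level as covariate and 0.012 in the 14-month mice (exact permutation p = 0.750), and higher in DPAn-6 relative to the homeostatic list (exact permutation p = 0.0745). Depth limits Lgals3 most, with as few as 33 counts in a library.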
